A study of Homo sapiens with 12 samples.

Results

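The nuclear pore and nuclear transport genes described here are NUP153, a nucleoporin of the nuclear basket, and 34 further genes that encode nucleoporins, importins, exportins and components of the Ran cycle. They were taken from a list of symbols and found by Ensembl identifier, and all 35 were matched among the 20595 genes of the deposited table. NUP153 was picked because its RNA moved in opposite directions in both cell lines, so its values are given as a description and it stays out of every count below. The comparison asks whether that opposite change was shared by the other pore and transport genes.

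Both cell lines, A549 and H1792, derive from human lung adenocarcinomas and are described in the study as MDM2-amplified, and their RNA was sequenced after 48 h with either DMSO, the vehicle, or 1 μM RG7112, an MDM2 inhibitor of the nutlin family that blocks the binding of MDM2 to p53. A549 is given as p53 wild-type (WT) and H1792 as p53 mutant in most of the paper's text. Each line had 3 replicates per treatment, which makes 4 groups and 12 samples. Both models are single established lines in culture, so cell line and p53 status cannot be told apart.

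The nuclear pore complex is the channel through which RNA and protein cross the nuclear envelope. Its scaffold consists of an outer ring, built by the Y complex, and an inner ring, held in the membrane by transmembrane nucleoporins, with filaments on the cytoplasmic face, a basket on the nuclear face and FG nucleoporins in the central channel. Importins and exportins carry cargo through the channel, and the small GTPase RAN gives transport its direction, with RCC1 loading GTP onto RAN in the nucleus and RANGAP1 stimulating its hydrolysis in the cytoplasm.

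Depth ranged from 2011916 to 6218825 counts per sample (median 3928090), so that 3 counts stood for 0.465 to 1.43 CPM (counts relative to the TMM-scaled library size). MDM2, itself a p53 target, and CDKN1A, a cell cycle inhibitor and p53 target, served as a check of the treatment. MDM2 rose in A549 from 3.12, 9.56 and 13.0 CPM to 72.8, 58.6 and 76.1 CPM (log2 fold change 2.99, edgeR adjusted p = 0.0102), and in H1792 its log2 fold change was -0.05. CDKN1A rose in A549 from 45.0, 42.5 and 24.2 CPM to 203, 189.7 and 942 CPM (3.58, edgeR adjusted p = 0.0252), with 0.15 in H1792 (adjusted p = 0.882). Keratins marked both lines as epithelial, with KRT8 between 581 and 15863 CPM, whereas EPCAM reached no more than 6.23 CPM, CDH1 no more than 1.06 CPM in H1792, and the lung lineage factor NKX2-1 no more than 0.155 CPM. SFTPB and SFTPC reached at most 0.543 CPM and NAPSA 5.70 CPM. PTPRC, CD3E, PECAM1 and VWF stayed below 0.5 CPM in all samples, while COL1A1 and COL1A2 were abundant in H1792 (189 to 295 and 896 to 1135 CPM) and PDGFRB reached 6.29 CPM there. Replicate 3 of A549 stood apart in both treatments. Its squared count differences from replicates 1 and 2 were 17.2 to 25.6 times the counting variance. This ratio, a chi-square divided by its degrees of freedom, was 5.38 to 10.5 for the other pairs within groups. In bulk RNA of this kind, fewer cells with a transcript and less of it per cell cannot be told apart.

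Per kilobase of transcript, the RNA of RAN was by far the most abundant in DMSO, at 464 CPM per kb in A549 and 461 in H1792. In the order of A549, NUP62 (119 CPM per kb in A549 and 106 in H1792), RCC1 (93.8 and 162), KPNB1 (88.1 and 43.3) and NUP188 (49.1 and 71.0) followed, whereas in H1792 RCC1 lay above NUP62, and NUP85 (55.7 CPM per kb), NUP88 (49.7) and SEC13 (48.2) above KPNB1. RANBP2, which dividing cells in general use, and NUP210 lay near the floor. KPNA2 and XPO1, also in general use in dividing cells, were low (1.84 and 0.487 CPM per kb in A549, 0.473 and 0.808 in H1792). RANBP2, the large filament nucleoporin that binds RANGAP1, had at most 1 count in any library, and NUP210 had 6 and 7 counts summed over the A549 groups. RANBP2 shares sequence with the RGPD copies and POM121 with POM121C, so these values depend on how the estimated counts were split between copies.

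Start site sequences are shown for the anchor of the set and for 3 members that stand for different outcomes: RAN, whose fall was the largest of those called in A549, NUP188, which also fell in A549, and NUP160, whose difference between the lines passed under each alternative setting. Capitals mark letters of the cell cycle motifs searched, CHR letters (TTTGAA or TTCGAA) and E2F letters (GCGGGAA or GGCGGGA), on either strand. The windows are from RefSeq on GRCh38.p14, 250 bases before to 30 after the listed start, at chr6:17706896-17707175 (minus strand), chr12:130871816-130872095 (plus), chr9:128947449-128947728 (plus) and chr11:47848515-47848794 (minus).
NUP153: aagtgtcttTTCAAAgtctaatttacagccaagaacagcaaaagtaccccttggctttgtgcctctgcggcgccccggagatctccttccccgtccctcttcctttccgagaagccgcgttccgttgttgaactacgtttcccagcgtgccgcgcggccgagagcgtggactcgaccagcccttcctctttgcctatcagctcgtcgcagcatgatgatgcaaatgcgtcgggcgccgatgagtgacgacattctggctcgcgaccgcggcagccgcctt
RAN: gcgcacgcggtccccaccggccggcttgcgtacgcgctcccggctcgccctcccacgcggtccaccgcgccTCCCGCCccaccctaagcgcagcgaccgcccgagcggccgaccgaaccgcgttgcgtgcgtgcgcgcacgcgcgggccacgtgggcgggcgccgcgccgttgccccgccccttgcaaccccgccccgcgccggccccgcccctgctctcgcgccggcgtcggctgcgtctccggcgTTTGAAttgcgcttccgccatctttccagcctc
NUP188: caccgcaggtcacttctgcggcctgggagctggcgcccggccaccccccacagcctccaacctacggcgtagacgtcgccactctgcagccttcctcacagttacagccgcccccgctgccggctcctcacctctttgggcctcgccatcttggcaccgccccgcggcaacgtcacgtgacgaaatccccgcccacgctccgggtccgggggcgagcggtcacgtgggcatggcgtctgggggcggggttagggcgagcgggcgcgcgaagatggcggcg
NUP160: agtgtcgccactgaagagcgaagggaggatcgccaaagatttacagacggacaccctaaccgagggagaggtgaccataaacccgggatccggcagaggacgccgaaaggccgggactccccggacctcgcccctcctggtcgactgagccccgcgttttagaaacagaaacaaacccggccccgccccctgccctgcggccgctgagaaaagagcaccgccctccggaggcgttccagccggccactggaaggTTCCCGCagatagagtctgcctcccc
NUP153 held CHR letters far upstream, RAN held CHR letters across its start and E2F letters upstream, NUP160 held E2F letters just inside the transcript, and NUP188 held neither. Over full windows of 300 bases, CHR letters were in 11 of the 31 members other than NUP153 with a RefSeq promoter (35.5%), against 19.5% of 27305 genes and 15.6% of the 8466 promoters of genes tested here. E2F letters, whose 2 forms overlap in GGCGGGAA, were in 15 of these 31 members (48.4%), against 20.9% of all genes and 35.5% of those tested. IPO7, NUP98 and RAN held both. GLE1, KPNB1 and NUP43 were not matched. These matches describe letters in a window and do not show a site in use.

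NUP153 itself, which anchors the basket and binds importins, stood at 61.8, 61.1 and 52.1 CPM in A549 with DMSO and at 34.1, 30.03 and 27.4 CPM with RG7112. In H1792 it stood at 72.9, 71.8 and 55.4 CPM with DMSO and at 101, 103 and 102 CPM with RG7112. The treatments did not overlap in either line: RG7112 was lower in A549 (log2 fold change -0.93, SE 0.18) and higher in H1792 (0.68, SE 0.12). The difference between both responses, A549 minus H1792, was -1.54 on the log2 scale (SE 0.21). The size in H1792 depended on the correction for GC content: it was 0.26 after a GC correction, 0.12 after a correction for GC content and length, and 0.94 with scaling to library size only, and the difference between the lines was -1.06, -0.96 and -1.94, respectively. The NUP153 gene (ENSG00000124789) lies at chr6:17615035-17706834 on the minus strand of GRCh38 and overlaps an antisense transcript, AL138724.1, in its exons.

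In A549, 25 of the 30 other members tested had a negative log2 fold change with RG7112. Of these 4 fell (RAN, NUP188, NUP62 and RCC1) and 0 rose by edgeR's quasi-likelihood test, at an adjusted p under 0.05 (Benjamini-Hochberg over all genes tested). Over all genes tested in A549, 4.03% fell and 4.35% rose. No member was higher at an unadjusted p under 0.05 either (0 of 30, against 12 lower), where 12.4% of all genes were higher and 11.5% lower. DESeq2 called 0 members higher and 8 lower, with 4.38% and 4.2% of all genes. The median log2 fold change of the members was -0.59, whereas that of all genes was -0.01. RAN was the member that fell by more than 2-fold, against 3.01% of all genes (3.18% rose as far). Treated and control samples did not overlap for 12 members lower with RG7112 and for 1 higher, against 16.3% and 16.2% of all genes.

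RAN, the GTPase itself, had 1136, 1094 and 1475 CPM with DMSO and 586, 603 and 524 CPM with RG7112 in A549. Each treated A549 sample was below each control, by -1.11 on the log2 scale (SE 0.15, edgeR adjusted p = 0.00703). In H1792 the RAN samples ranged from 1189.8 to 1282 CPM with DMSO and from 1005 to 1121 CPM with RG7112, a log2 fold change of -0.15 that did not pass (edgeR adjusted p = 0.102). Without overlap, RG7112 was the lower treatment for RAN in both lines, although with library size only the H1792 value was 0.11. The difference between the lines was -0.89 (SE 0.17, edgeR adjusted p = 0.00525), but after GC correction H1792 also passed (-0.64, edgeR adjusted p = 0.00682) and the difference did not (-0.31, adjusted p = 0.318).

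RCC1, the exchange factor that charges RAN, stood in A549 at 246, 272 and 283 CPM with DMSO and at 176, 176 and 195 CPM with RG7112 (log2 fold change -0.55, SE 0.12, edgeR adjusted p = 0.0379). In H1792 the same gene had 459, 472 and 449.9 CPM with DMSO and 453, 429 and 404 CPM with RG7112 (-0.03, adjusted p = 0.758 by edgeR). The treatments were separate in A549 and overlapped in H1792, where scaling to library size only gave 0.23 (edgeR adjusted p = 0.0197). RCC1 shares exon sequence with SNHG3 on the same strand. RANGAP1, the third member of the cycle, varied between 6.67 and 32.3 CPM over the A549 samples and passed in neither line.

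NUP188, a large scaffold nucleoporin of the inner ring, had 293, 292 and 252 CPM in A549 with DMSO and 169, 180.2 and 168 CPM with RG7112. H1792 held 424, 399 and 388 CPM with DMSO and 393, 404 and 412 CPM with RG7112, so the treatments overlapped there. The log2 fold changes were -0.70 in A549 (SE 0.12, edgeR adjusted p = 0.0165) and 0.07 in H1792 (adjusted p = 0.458). NUP62, an FG nucleoporin of the central channel, moved from 439, 449.7 and 390.3 CPM to 282, 272 and 299.9 CPM in A549 (-0.58, SE 0.12, edgeR adjusted p = 0.0276). Its H1792 samples were at 385, 384 and 374 CPM with DMSO and at 339, 355 and 339.6 CPM with RG7112, lower with RG7112 in each sample, with a log2 fold change of -0.07 that did not pass (edgeR adjusted p = 0.39) and was 0.19 with library size only. NUP188 and NUP62 each overlap exons of genes on the opposite strand, SH3GLB2 and ATF5.

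The A549 calls other than RAN were close to the threshold. Leaving out DMSO replicate 1, DMSO replicate 2, RG7112 replicate 1 or RG7112 replicate 2 left RAN as the only member that passed. Of all genes, 1.47% to 1.82% fell in these fits. The log2 fold changes over these omissions stayed between -0.76 and -0.67 for NUP188, -0.64 and -0.55 for NUP62 and -0.61 and -0.50 for RCC1, which was also lost without DMSO replicate 3, with edgeR adjusted p up to 0.0876, 0.127 and 0.145. Without replicate 3 of both treatments, 6 members fell in A549, against 5.15% of all genes.

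**Figure D1:**
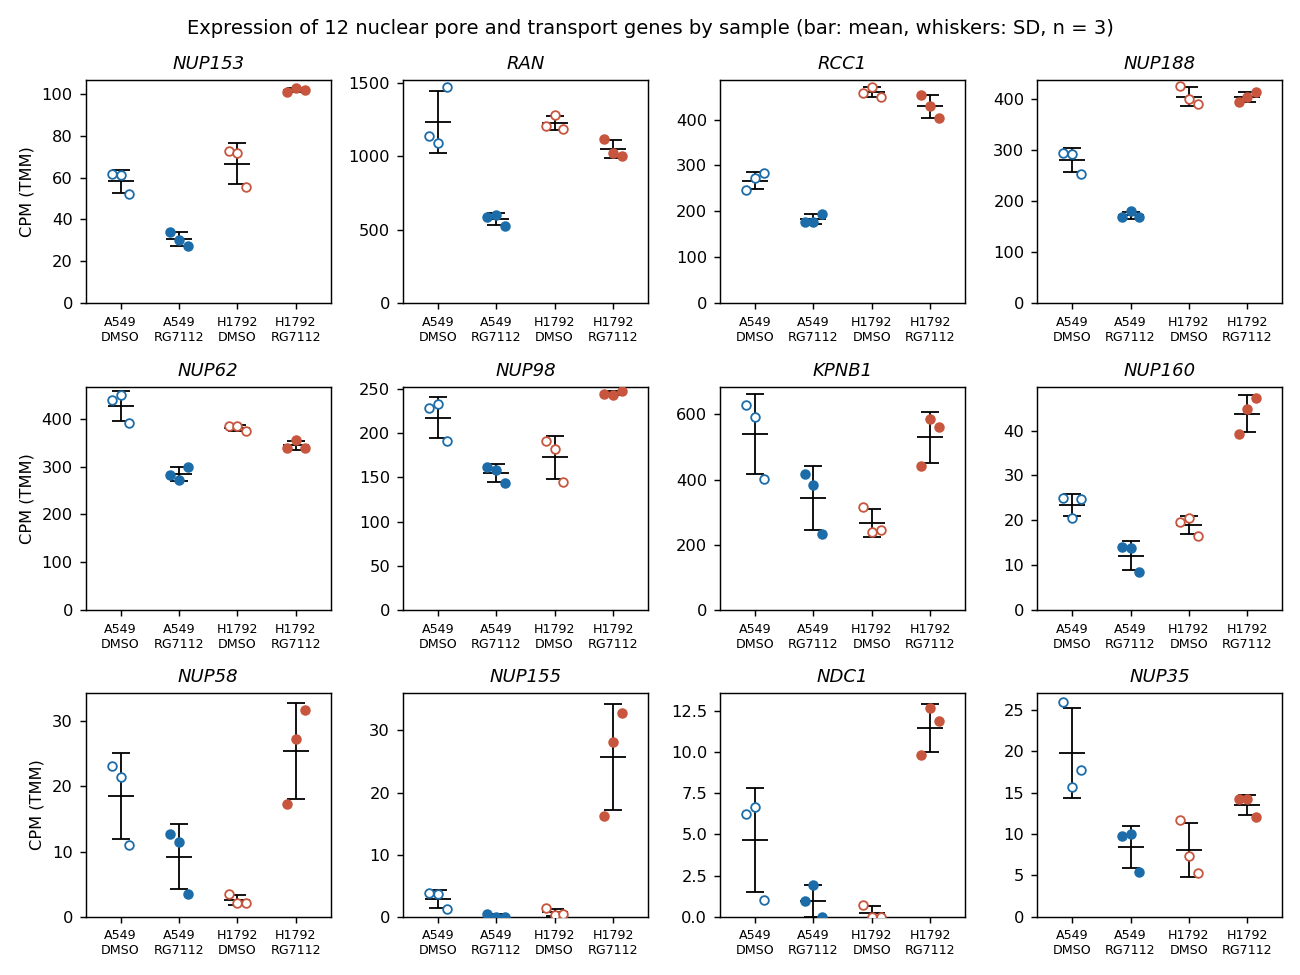
Expression in CPM (TMM-scaled, linear axis from 0) of 12 nuclear pore and transport genes in each sample; open points are DMSO and filled points RG7112, horizontal bars are means and whiskers SDs over 3 replicates. RAN, RCC1, NUP188 and NUP62 are lower with RG7112 in all A549 samples, whereas NUP98, NUP160, NUP58, NUP155 and NDC1 are higher with RG7112 in all H1792 samples.

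In H1792, 14 of 31 members rose with RG7112, against 17.7% of all genes tested: NUP50, GLE1, NUP160, NUP133, NUP43, NUP155, NDC1, POM121, NUP58, NUP54, NUP98, RAE1, KPNB1 and IPO7. Of these 12 rose more than 2-fold (10.3% of all genes). NUP85 and NUP93 fell, both more than 2-fold, against 16.5% of all genes that fell and 4.34% that fell more than 2-fold. Samples did not overlap for 15 members higher with RG7112 and 6 lower, against 24.9% and 28.4% of all genes. NUP43, NDC1, NUP155 and IPO7 had at most 2, 2, 4 and 9 counts in any control, and NUP58 and NUP133 at most 10 and 12. GLE1 had 0 counts in DMSO replicate 3. For each of these members too few controls reached the filter, so only the treated samples let them be tested. Genes so low in the controls could pass only as higher. Over the 23 members with at least 10 counts in each library, 7 rose and 2 fell, against 21.3% and 19.2% of all genes. The median of the members was 0.22 and that of all genes 0.01. The former was 0.49 without DMSO replicate 2 and 0.039 over those 23 members. With the GC correction 12 members rose and 7 fell (10.8% and 15.0% of all genes), and with the correction for GC content and length 9 rose and 5 fell (9.86% and 13.8%). Scaling to library size only raised the median of all genes in H1792 to 0.27, with a split of 26.6% higher and 8.56% lower, and 17 members rose and 2 fell.

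The central channel had the most members that rose in H1792, 4 of 5. NUP58, an FG nucleoporin that forms the channel with NUP62 and NUP54, stood at 3.52, 2.08 and 2.18 CPM with DMSO and 17.3, 27.2 and 31.7 CPM with RG7112 (log2 fold change 3.37, SE 0.36, edgeR adjusted p = 0.00305). All treated samples were above all controls. Only the treated samples let NUP58 be tested in H1792, and a minimum of 10 counts in each library left it out. In A549 the NUP58 values were 23.1, 21.5 and 10.96 CPM with DMSO and 12.7, 11.4 and 3.53 CPM with RG7112, which overlapped (-1.002, SE 0.52, edgeR adjusted p = 0.297). NUP98, an FG nucleoporin that binds the RNA export factor RAE1, rose from 191, 182 and 145 CPM to 245, 243 and 247 CPM in H1792 (0.58, SE 0.11, edgeR adjusted p = 0.00866). In A549 NUP98 was at 228, 233 and 192 CPM with DMSO and 162, 158 and 143 CPM with RG7112, without overlap but short of the threshold (-0.49, SE 0.14, edgeR adjusted p = 0.0706). NUP98 passed with DESeq2 in both lines, in opposite directions. Its rise in H1792 was 0.17 after the correction for GC content and length (edgeR adjusted p = 0.247). NUP54 (1.49) and RAE1 (1.07) also rose in H1792, but both were lost with the GC correction (0.87 and 0.90) and when 1 of 4 libraries was left out: RG7112 replicate 2, RG7112 replicate 3 or DMSO replicate 3 for both, DMSO replicate 2 for NUP54 and DMSO replicate 1 for RAE1, over which the log2 fold changes ranged from 1.19 to 1.91 for NUP54 and from 0.82 to 1.29 for RAE1.

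The Y complex, which builds the outer ring, held 3 members that rose in H1792 and 1 that fell, of 7 tested. NUP160, one of its largest subunits, stood at 19.7, 20.5 and 16.6 CPM in H1792 with DMSO and at 39.3, 44.8 and 47.3 CPM with RG7112 (log2 fold change 1.28, SE 0.16, edgeR adjusted p = 0.00355). In A549 it stood at 24.99, 20.5 and 24.7 CPM with DMSO and at 14.1, 13.8 and 8.42 CPM with RG7112 (-0.95, SE 0.28, edgeR adjusted p = 0.0872). The treatments were apart in both lines and in opposite directions. NUP133, another subunit of the complex, had 2.82, 2.77 and 3.05 CPM with DMSO and 6.20, 16.0 and 13.3 CPM with RG7112 in H1792 (2.11, edgeR adjusted p = 0.0116). Only its treated samples let it be tested there. In A549 NUP133 was at 10.9, 7.51 and 4.73 CPM with DMSO and at 3.25, 1.91 and 0.272 CPM with RG7112, without overlap and without passing (-2.00, SE 0.72, edgeR adjusted p = 0.146). NUP43 was counted only 2 times over the 3 H1792 controls and 122 times with RG7112, a ratio per library size of 41.9 (95% interval 11.3 to 350, counting error only). NUP85 fell in H1792 from 88.8, 106 and 159.6 CPM to 62.5, 47.1 and 57.0 CPM (-1.01, SE 0.24, edgeR adjusted p = 0.0203), and its A549 samples were lower without overlap as well (-1.13, SE 0.35, edgeR adjusted p = 0.0983). Without H1792 RG7112 replicate 2 or replicate 3 the call of NUP85 was lost, with values of -1.18 to -0.73 over all omissions. NUP37, SEH1L and SEC13 passed in neither line, with log2 fold changes in H1792 from -0.31 to 0.20, and all 7 subunits were below 0 in A549 (-2.00 to -0.44).

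In the inner ring, NUP155, which bridges the scaffold and the membrane, stood at 1.41, 0.231 and 0.436 CPM in H1792 with DMSO and at 16.3, 28.1 and 32.8 CPM with RG7112 (log2 fold change 5.32, SE 0.59, edgeR adjusted p = 0.00313). All H1792 controls were near the floor and all treated samples well above it. In A549 it was too low to be tested, with 38 counts over the controls and 3 over the treated samples, a ratio per library size of 11.8 (95% interval 3.76 to 60.0), lower with RG7112. NUP93, a scaffold nucleoporin that recruits NUP62, fell in H1792 from 52.1, 61.2 and 50.6 CPM to 18.9, 12.3 and 4.19 CPM (-2.15, SE 0.46, edgeR adjusted p = 0.0149), a call that was lost without RG7112 replicate 2 (values of -2.62 to -1.75 over all omissions). NUP93 was at 31.1 and 32.6 CPM in replicate 3 of A549, DMSO and RG7112, and between 2.86 and 11.6 CPM in replicates 1 and 2. NUP35, a membrane-binding nucleoporin of the inner ring, had 25.9, 15.7 and 17.7 CPM in A549 with DMSO and 9.76, 10.0 and 5.43 CPM with RG7112. In H1792 it had 11.6, 7.39 and 5.23 CPM with DMSO and 14.2, 14.2 and 12.1 CPM with RG7112. NUP35 thus had no overlap in either line, lower in A549 (-1.23, edgeR adjusted p = 0.0762) and higher in H1792 (0.81, edgeR adjusted p = 0.0976), without passing in either. NUP205 was below 0 in both lines (-0.94 and -0.47) and did not pass.

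Among the membrane anchors, NDC1, a transmembrane nucleoporin, stood at 0.705, 0 and 0 CPM in H1792 with DMSO and at 9.82, 12.6 and 11.9 CPM with RG7112 (log2 fold change 5.60, SE 0.79, edgeR adjusted p = 0.0047). The controls held 2 counts and the treated samples 160, a ratio of 54.9 (95% interval 15.0 to 457, counting error only). In A549 NDC1 was at 6.25, 6.66 and 0.996 CPM with DMSO and 0.930, 1.91 and 0 CPM with RG7112 and could not be tested. POM121, which tethers the pore to the membrane, rose in H1792 from 224, 195 and 174 CPM to 279, 328 and 357 CPM (0.78, SE 0.13, edgeR adjusted p = 0.00731) and passed under each of 16 alternative settings. POM121 was also the only member higher with RG7112 in A549 without overlap (0.30, edgeR adjusted p = 0.285). AAAS passed in neither line (0.04 in A549 and -0.99 in H1792).

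On the cytoplasmic face, GLE1, which activates the RNA helicase of mRNA export, rose in H1792 from 3.88, 7.62 and 0 CPM to 16.5, 32.02 and 33.99 CPM (log2 fold change 2.81, SE 0.79, edgeR adjusted p = 0.0351). This call was lost without DMSO replicate 1, RG7112 replicate 2 or RG7112 replicate 3, with values of 2.31 to 3.76 over all omissions. GLE1 was tested in H1792 only through its treated samples. The call was also lost with the correction for GC content and length (2.59, edgeR adjusted p = 0.0551). NUP214 and NUP88, which form the filament base together, passed in neither line (0.02 and -0.60 in A549, 0.22 and -0.19 in H1792). In the basket, NUP50, a cofactor of importin alpha that binds NUP153, rose in H1792 from 14.8, 10.4 and 11.8 CPM to 25.6, 24.2 and 30.3 CPM (1.19, SE 0.22, edgeR adjusted p = 0.00895). This rise was lost with the correction for GC content and length (0.58, edgeR adjusted p = 0.078). The A549 samples of NUP50 overlapped, at 26.9, 29.9 and 12.5 CPM with DMSO and 14.7, 10.5 and 16.8 CPM with RG7112 (-0.71, edgeR adjusted p = 0.311). TPR, the filament protein of the basket, passed in neither line (-0.26 and -0.42).

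Among the transport receptors, KPNB1, importin beta and the main carrier of classical import, rose in H1792 from 315, 239 and 245 CPM to 441, 587 and 560.3 CPM (log2 fold change 1.07, SE 0.16, edgeR adjusted p = 0.0056). In A549 it was at 629, 593 and 401 CPM with DMSO and 416, 382 and 233 CPM with RG7112, overlapping through replicate 3 of the controls (-0.65, SE 0.26, edgeR adjusted p = 0.187). IPO7, an importin of ribosomal proteins and histones, rose in H1792 from 3.17, 0.462 and 0.872 CPM to 16.8, 22.9 and 24.9 CPM (3.95, SE 0.61, edgeR adjusted p = 0.00571). Its A549 samples overlapped (-0.53, edgeR adjusted p = 0.558). XPO1, the main exportin, and KPNA2, an importin alpha, were low, at no more than 4.39 and 7.85 CPM in any sample. XPO1 passed in neither line (0.32 in A549 and -0.54 in H1792), and KPNA2 did not pass in A549 (-0.60) and was not tested in H1792.

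**Figure D2:**
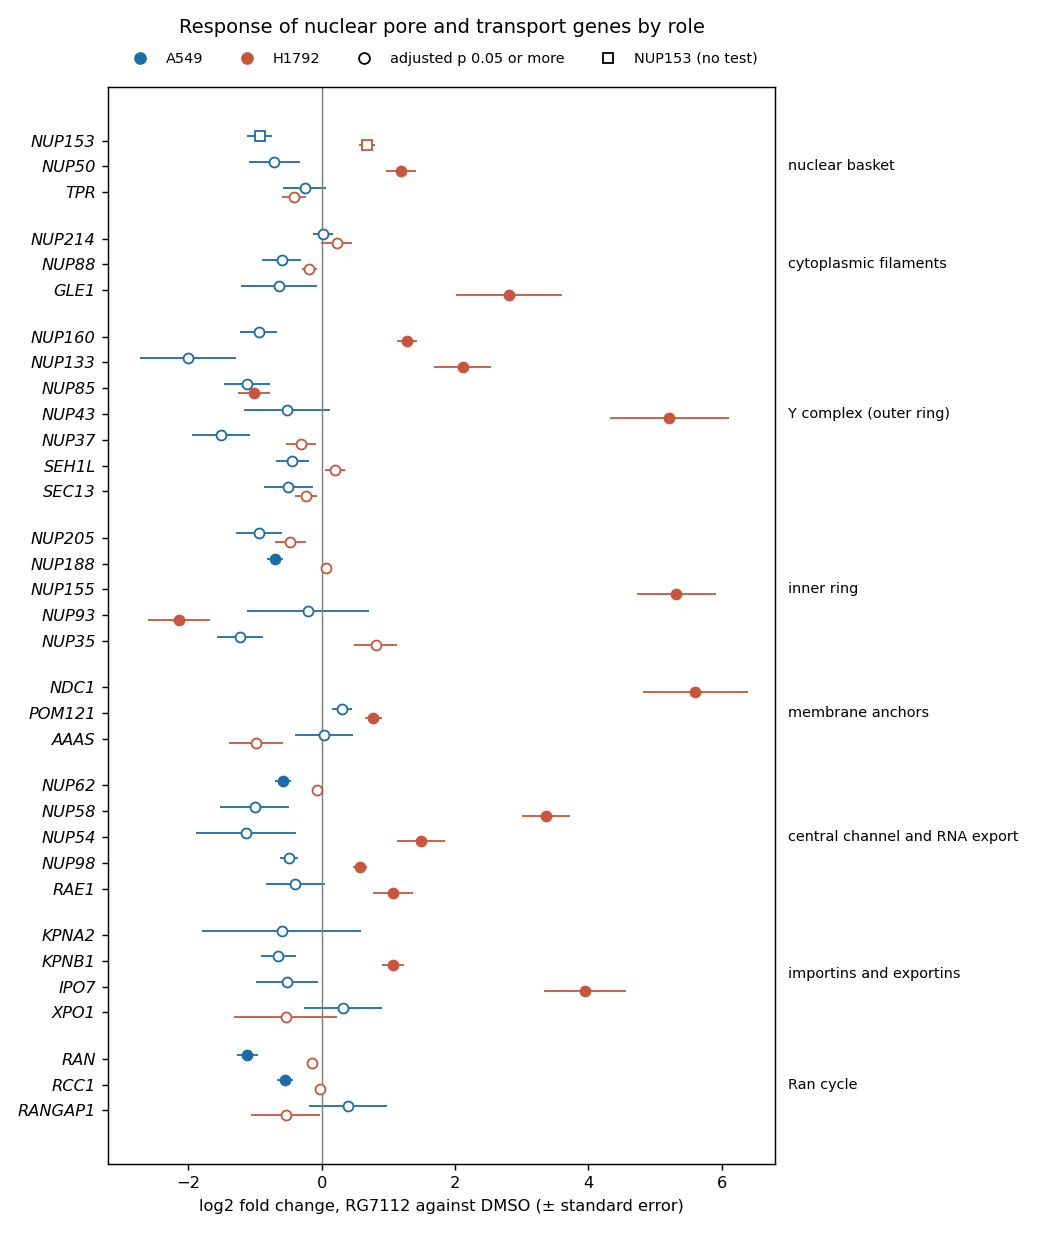
log2 fold change of RG7112 against DMSO with its standard error for each member that was tested, grouped by role in the pore or in transport; blue is A549, red H1792, filled points passed edgeR at an adjusted p under 0.05, and squares mark NUP153, which was not tested. In A549, 25 of the 30 points other than NUP153 lie left of 0, while in H1792 the points spread from -2.15 (NUP93) to 5.60 (NDC1).

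The opposite signs of NUP153, lower in A549 and higher in H1792, were shared by 14 of the 29 members tested in both lines (48.3%), against 29.5% of 9181 genes. With the GC correction the share was again 14 of 29, against 22.5% of all genes, and with library size only 20 of 29, against 39.4%. A further 10 members were below 0 in both lines, 2 were above 0 in both, and 3 were higher in A549 and lower in H1792. The responses of both lines share no samples. By edgeR, in the fits within each line, 0 of 29 members passed in both lines, in any direction, against 231 (2.52%) of all genes. Over all genes 122 (1.33%) passed in opposite directions, 64 (0.697%) of all as lower in A549 and higher in H1792. The count of 0 members depended on the setting. NUP98 passed in opposite directions with the GC correction (0.959% of all genes), and NUP188 and RCC1 with library size only (1.67%). In 1 fit of all 12 samples NUP160, NUP98 and NUP155 did so (1.96%). At an unadjusted p under 0.05, 7 of 29 members were below it in both lines, against 10.8% of all genes, of which NUP160, NUP133, KPNB1, NUP98 and NUP35 had opposite signs (5.88% of all genes) and NUP85 and RAN were lower in both. DESeq2 called NUP98 and NUP85, of 34 members, in both lines, against 2.85% of all genes (1.53% in opposite directions). The members nearest to NUP153 in the pair of log2 fold changes were NUP35 (distance 0.324), NUP98 (0.4496) and KPNB1 (0.473).

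Whether the responses differed was tested directly as an interaction over all 12 samples. At an adjusted p under 0.05, the log2 fold change was lower in A549 than in H1792 for 16 of 32 members, against 11.4% of all genes, and higher for 0 members, against 10.4%. Whether past the threshold or not, it was lower for 27 members and higher for 5. No member was higher at an unadjusted p under 0.05 (0 of 32, against 19 lower), where 17.7% of all genes were higher and 18.5% lower. DESeq2 called 0 members higher and 17 lower, with 9.12% and 8.61% of all genes. Past 2-fold, 11 passed as lower (9.59% of all genes) and 0 as higher (7.78%). The median difference of the members was -0.79 and that of all genes 0.02. The difference was -8.71 for NUP155 (SE 1.12, edgeR adjusted p = 0.000713), -2.15 for NUP160 (SE 0.31, adjusted p = 0.00135), -4.29 for NUP58 (SE 0.69, adjusted p = 0.00254) and -0.998 for NUP98 (SE 0.17, adjusted p = 0.00338). NUP188 differed by -0.70 (SE 0.12, edgeR adjusted p = 0.00418), KPNB1 by -1.65 (SE 0.33, adjusted p = 0.00711) and NUP35 by -1.97 (SE 0.49, adjusted p = 0.0172). The size for NUP155 rests on groups near the floor.

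The 16 members came from all 8 roles, with 3 of 7 from the Y complex, 3 of 5 from the inner ring, 3 of 5 from the central channel and 2 of 3 from the Ran cycle. Of the 16, 11 had passed as higher in H1792 and 4 as lower in A549, and NUP35 had passed in neither. NUP160, NUP188, NUP98 and KPNB1 passed under each of 22 alternative settings. GLE1 was lost without any of 9 libraries, all but A549 DMSO replicate 3 and H1792 DMSO replicate 2 and RG7112 replicate 1 (values of -4.37 to -2.87 over all omissions). NUP62 was lost without A549 DMSO replicate 1 or 2, H1792 DMSO replicate 2 or 3 or H1792 RG7112 replicate 2 (-0.50 to -0.43) and with RLE scaling, and RCC1 without any H1792 DMSO replicate (-0.54 to -0.41). Without replicate 3 of both A549 treatments 18 members passed as lower, against 11.9% of all genes.

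**Figure D3:**
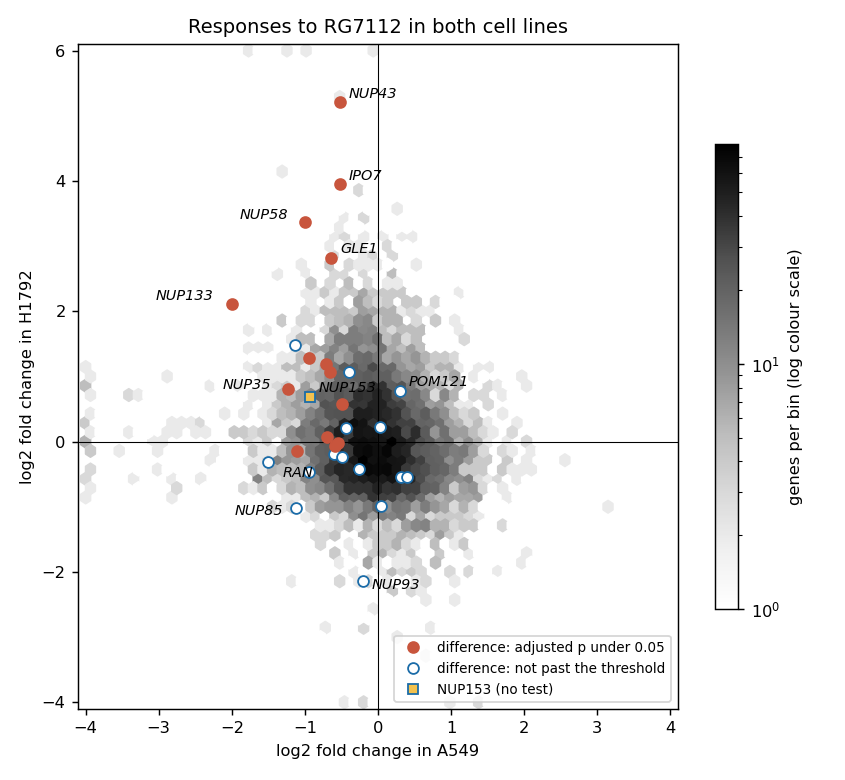
log2 fold change in A549 (horizontal) against H1792 (vertical) for the members tested in both lines, over all genes tested in both as grey bins on a log colour scale; genes beyond the axes are drawn at the edge. Filled red circles mark members whose responses differed at an adjusted p under 0.05, and NUP153 is the yellow square. NUP43, IPO7, NUP58 and GLE1 lie far up in the upper left quadrant, and NUP85 and NUP93 lie below 0 in both lines.

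The response in H1792 moved with GC content across genes: Spearman's rho between GC content of the transcript and log2 fold change was -0.495 in H1792 and 0.256 in A549, over genes of 1 set of libraries each, and rho with the difference between the lines was 0.446. Transcripts of the members were poorer in GC (median 44.4% in H1792) than those of all genes tested (48.9%) and longer (4915 against 3432 nt). Of the 20 members below the median GC content, 11 rose in H1792, against 29.2% of all genes below it. Of the 11 above the median, 3 rose (GLE1, POM121 and RAE1), against 7.51% of all genes above it. For the difference between the lines, 13 of 23 members below the median passed as lower (19.2% of all genes) and 3 of 9 above it (4.49%). With the GC correction 13 members passed as lower, against 7.33% of all genes, and with GC content and length 14, against 7.99%. NUP50 and RAN passed with neither correction (NUP50 -1.20 and -1.09, RAN -0.31 and -0.34), and GLE1 (-3.22 and -3.18) did not either. NUP35 was lost with the GC correction only (-1.23). What part GC content has in the calls was not tested beyond these corrections.

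**Figure D4:**
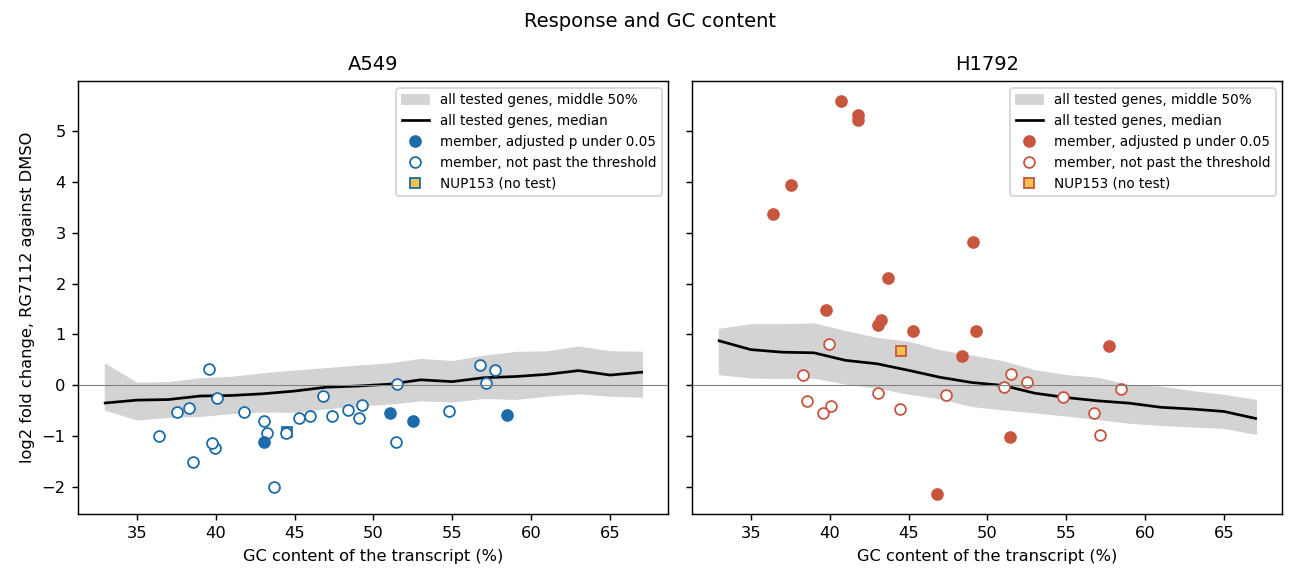
log2 fold change with RG7112 (vertical) against GC content of the longest protein-coding transcript in percent (horizontal) in A549 and H1792; points are members, filled where they passed at an adjusted p under 0.05, the black line is the median of all tested genes and the grey band their middle 50%. The median line rises with GC content in A549 and falls in H1792, and most members in A549 lie below the line.

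Replicate 3 of A549 stood apart at the same members. Of the 14 that rose in H1792, 13 were lower in A549 replicate 3 than in the mean of replicates 1 and 2 with DMSO (median -1.04 on the log2 scale), and 13 with RG7112 (median -0.80). Of the 32 members tested over the 12 samples, 17 were lower in replicate 3 with each treatment (medians -0.10 and -0.05). Over all genes 5514 of 11666 were lower with DMSO and 5841 with RG7112, with medians of 0.03 and -0.001. Whether a shared cause lay behind this was not tested.

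**Figure D5:**
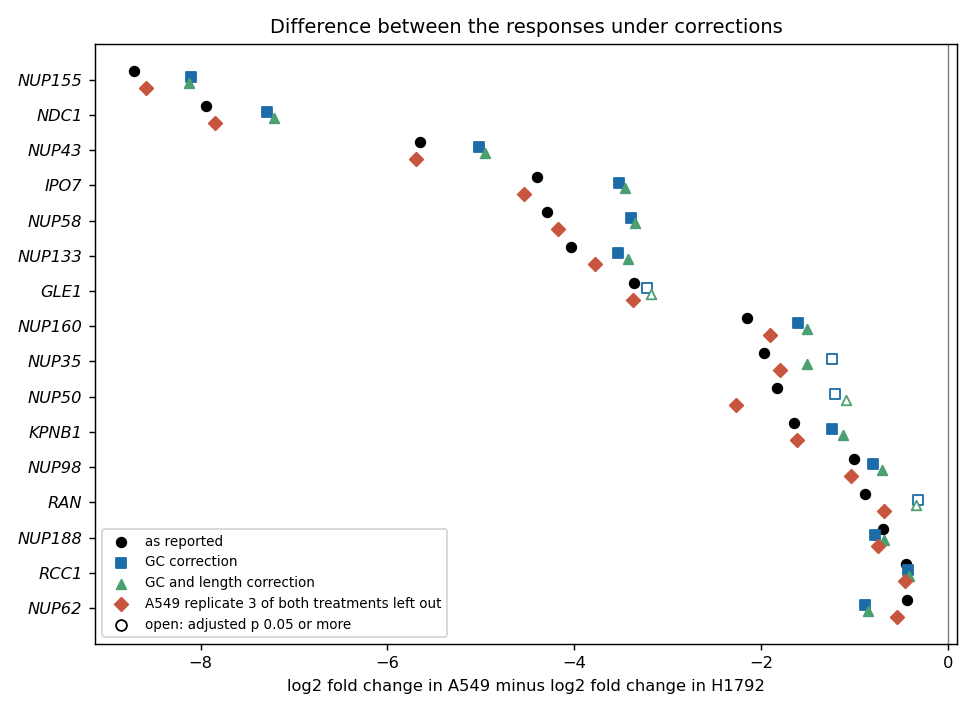
Difference between the responses (the A549 value minus the H1792 value, log2 scale) for the 16 members that passed, as reported and under 3 other settings; open symbols did not pass at an adjusted p under 0.05. All points lie left of 0, and RAN, NUP50 and GLE1 are open under both corrections.

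In DMSO, 11 members were higher and 5 lower in A549 than in H1792, against 25.6% and 22.0% of all genes. Past 2-fold, 8 were higher and 3 lower, against 20.4% and 14.5%. Those higher in A549 were NUP50, NUP214, GLE1, NUP43, NUP155, NUP35, NDC1, NUP58, NUP98, KPNB1 and IPO7. Those lower were NUP88 (log2 difference -1.32), NUP205 (-1.37), SEH1L (-1.19), RCC1 (-0.79) and NUP188 (-0.53). For NUP58 the difference was 2.83 (SE 0.52, edgeR adjusted p = 0.00102), and its H1792 level with RG7112 (25.4 ± 7.35 CPM, SD, n = 3) was near the A549 level with DMSO (18.5 ± 6.60). NUP153 differed by -0.20 (SE 0.15). This comparison and the response of H1792 share the H1792 DMSO samples, so their values are given side by side only. With the GC correction 7 members were higher and 8 lower (21.8% and 28.5% of all genes).

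Of the other pore and transport genes, 39 were matched. In A549 0 of 33 rose and 2 fell (4.35% and 4.03% of all genes), and in H1792 11 of 33 rose and 12 fell (17.7% and 16.5%). The difference between the responses passed as lower in A549 for 12 of 34 and as higher for 2 (11.4% and 10.4% of all genes). RANBP1, a cofactor of RAN, fell in A549 from 405, 424 and 544 CPM to 151, 149 and 172 CPM (log2 fold change -1.54, SE 0.16, edgeR adjusted p = 0.00208), and in H1792 from 683, 767 and 756 CPM to 568, 495 and 468 CPM (-0.45, SE 0.09, adjusted p = 0.0102). NUP107, the Y complex subunit that pairs with NUP133, fell in A549 from 52.8, 47.8 and 54.8 CPM to 19.5, 17.6 and 7.33 CPM (-1.80, SE 0.36, edgeR adjusted p = 0.0266). In H1792 NUP107 rose from 62.7, 58.2 and 38.4 CPM to 85.8, 105 and 103 CPM (0.95, SE 0.19, adjusted p = 0.0118 by edgeR), so that it passed in opposite directions in both lines. IPO5, an importin, rose in H1792 from 195, 195 and 193 CPM to 239, 230.4 and 225 CPM (0.33, edgeR adjusted p = 0.0106), and in A549 it was at 161, 149 and 148 CPM with DMSO and 113, 104 and 103 CPM with RG7112 (-0.51, adjusted p = 0.0501). TNPO1, transportin, rose in H1792 from 47.2, 35.8 and 38.8 CPM to 102, 124 and 141 CPM (1.67, edgeR adjusted p = 0.00305), and KPNA1, an importin alpha, from 36.6, 33.0 and 25.7 CPM to 61.5, 66.4 and 64.5 CPM (1.08, adjusted p = 0.00493 by edgeR). MCM3AP, a scaffold of mRNA export, fell there from 87.0, 89.8 and 93.7 CPM to 42.6, 29.5 and 33.1 CPM (-1.29, edgeR adjusted p = 0.00348). Of the 12 other importins tested, 6 passed in the difference between the responses, each with the lower log2 fold change in A549, against 11.4% of all genes. In that direction 3 of 7 other pore proteins, 2 of 7 other exportins and 1 of 8 other Ran and RNA export factors passed. Both genes that passed as higher were of the last group. The signs of NUP153, lower in A549 and higher in H1792, were shared by 12 of 33 of the other genes (36.4%), against 29.5% of all genes.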

How the data were processed

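RNA of 12 samples was sequenced after poly-A selection, 3 replicates for each of 4 groups (A549 or H1792, DMSO or RG7112 at 1 μM for 48 h). The authors deposited estimated counts (expected counts) per gene, whole numbers with no scaling between samples, which kallisto v0.45.0 had made against Ensembl GRCh38 transcripts before they were summed by gene. The strand setting of kallisto is not given in the sources used here. The column names carry a dose of 0.1 μM, while the labels and the paper give 1 μM. Where the paper introduces its RNA-seq, it swaps the p53 status of A549 and H1792 relative to its remaining text. Labels and paper also differ in read length and in the medium of A549. Nothing states that replicates came from separate cultures, so p-values measure the spread between these samples, which may be technical. Of the 20595 genes, 3296 had no count.

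The members and the other lists were chosen with earlier results of these data known. Within each line, filterByExpr (minimum count 10, total count 15) removed low genes, and the remaining counts were scaled by TMM and tested with edgeR's quasi-likelihood test (glmQLFit, robust), with Benjamini-Hochberg adjustment over all genes tested. A gene rose or fell at an adjusted p under 0.05. The study's threshold, with an absolute log2 fold change over 1 as well, is given beside the counts. The difference between the responses and the DMSO comparison came from 1 fit of all 12 samples. CPM values are TMM-scaled, intervals of count ratios cover counting error only. Named in full were NUP153, the 5 members with the smallest p in each response and in the difference between them, any member that passed in both lines, the 3 members nearest to NUP153 by Euclidean distance of both log2 fold changes, and the 3 other pathway genes with the smallest p in each line. Further members are named by role.

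GC content and length are those of the longest protein-coding transcript in GENCODE v29. Gene positions come from the same annotation, and promoter sequences from RefSeq (GRCh38.p14). Alternative settings comprised DESeq2, scaling by RLE or by library size alone, other filters on low counts, the replicate number as a block, corrections for GC content and length (loess per sample, span 0.5, prior count 2), all 12 samples in 1 fit for each response, the 2-fold threshold and leaving out each sample. Leaving out replicate 3 of both A549 treatments was added after the data were seen. Software was edgeR 4.0.16 and DESeq2 1.42.0 in R 4.3.3.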

Additional observations from a re-analysis of the deposited data

Results flagged for a closer look

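The responses to RG7112 of 16 members differed between A549 and H1792 by the interaction test in edgeR (adjusted p under 0.05), each with a lower log2 fold change in A549. The differences, A549 minus H1792 on the log2 scale, were -8.71 for NUP155, -7.94 for NDC1 and -5.65 for NUP43, which all had a group near the floor of 3 counts. IPO7 (-4.40), NUP58 (-4.29), NUP133 (-4.04) and GLE1 (-3.36) followed, then NUP160 (-2.15), NUP35 (-1.97), NUP50 (-1.82), KPNB1 (-1.65) and NUP98 (-0.998). These 12 had positive log2 fold changes in H1792. RAN (-0.89), NUP188 (-0.70), RCC1 (-0.45) and NUP62 (-0.44) fell in A549, with values between -0.15 and 0.07 in H1792.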

How the results depend on the processing

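Counts of members called and their medians are given against the reported ones: 4 lower in A549 (median -0.59), 14 higher and 2 lower in H1792 (0.22), 16 lower in the difference between the responses (-0.79), and 11 higher and 5 lower in the DMSO comparison, A549 against H1792 (0.31). In A549, DESeq2 called 8 lower (4.2% of all genes), 1 fit of all 12 samples 10 (7.29%) and the 2-fold threshold 1 (3.01%), and the correction for GC content and length gave a median of -0.51. In H1792, a minimum of 10 counts in each library left 23 members, 7 of them higher (median 0.039), against 21.3% of all genes. The GC correction gave 7 lower (15.0%), and GC content and length 9 higher and 5 lower (9.86% and 13.8%, median 0.14). With 1 fit of all 12 samples 1 was lower (12.5%, median 0.13), and library size only gave a median of 0.48. For the difference between the responses, the same minimum left 20 members, and 9 passed as lower (median -0.55), against 17.4% of all genes. The medians were -1.18 with library size only, -0.88 without a filter and -0.69 with GC content and length. In the DMSO comparison, 6 of 20 were higher with that minimum, against 28.3% of all genes. With the GC correction 7 were higher and 8 lower (21.8% and 28.5%, median 0.061). GC content and length gave 7 higher (21.8%, median -0.067), and the 2-fold threshold 3 lower (14.5%). The median was 0.58 with library size only. Library size only moved the median of all genes to 0.27 in H1792, -0.37 in the difference and 0.35 in the DMSO comparison, and RCC1 in H1792 to 0.23 from -0.03. The causes of these shifts were not tested. Without replicate 3 of both A549 treatments, 8 members were lower in the DMSO comparison (median 0.23), against 24.5% of all genes.

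Leaving out 1 library at a time gave 1 to 4 lower in A549 (median -0.74 to -0.52), against 1.47% to 3.11% of all genes. In H1792 11 to 14 were higher and 0 to 4 lower (0.17 to 0.49), against 9.08% to 16.5% and 9.26% to 16.5%. In the difference 13 to 18 were lower (-0.88 to -0.76), against 7.41% to 12.6%. The DMSO comparison gave 7 to 12 higher and 5 to 8 lower (0.21 to 0.34), against 21.2% to 26.3% and 17.7% to 23.1%. The count of 0 lower in H1792 came without RG7112 replicate 2, 1 without RG7112 replicate 3 and 4 without RG7112 replicate 1. In the DMSO comparison, 7 were higher without H1792 DMSO replicate 2, and 8 were lower without A549 DMSO replicate 3. No member passed as higher in A549 or in the difference under any setting.

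Replicate numbers were not taken to pair the samples, because not every same-numbered pair deviated together at a correlation over 0.1: the values were 0.145, 0.0668 and 0.293 in A549, where replicate 3 of both treatments was the closest pair, and -0.0386, -0.0182 and -0.000216 in H1792. With the replicate number as a block, 7 members were lower in A549 (3.96% of all genes), 11 higher in H1792 (9.55%), 17 lower in the difference (9.92%) and 9 higher in the DMSO comparison (24.2%). KPNB1 and NUP98 then passed in both lines in opposite directions by edgeR (KPNB1 at -0.67 and 1.07, adjusted p = 0.0221 and 0.0361), against 1.11% of all genes. RCC1 no longer passed in the difference. The block with the GC correction gave 7 lower in A549 (5.19%), 4 higher in H1792 (3.35%), and 7 higher and 8 lower (median 0.063) in the DMSO comparison (20.6% and 27.7%). At this depth, members with few counts in a group (NUP43, NUP155, NDC1, RANBP2, NUP210) have imprecise fold changes or none.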
